A study of Mus musculus with 16 samples.

Results

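Hepatocyte growth factor (HGF), its receptor MET and 6 genes that act on HGF activation or on MET signalling were followed in regenerating mouse liver. The 8 genes were Met, Hgf, Hgfac, Plau, Plaur, Spint1, Spint2 and Gab1, out of 18193 genes named by a probe set of the array. They were chosen by symbol: every probe set annotated to Met or Hgf alone, and the probe set with the highest mean signal for each other gene. This gave 11 of the 15 probe sets that name these genes. Of the 11, 9 lay above their own array's median on at least 4 of the 16 arrays and were tested.

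Liver RNA was measured on 16 expression arrays, 1 for each of 4 arms on days 0, 2, 7 and 14 after partial hepatectomy, the surgical removal of part of the liver. All mice had the 129SV/C57BL/6 background and are labelled Metff/ff:ERCre+/+, which names a floxed Met gene and a tamoxifen-inducible Cre recombinase. In the MET_KO and MET_KO_canertinib arms exon 16 of Met had been deleted through that system, and MET_FLOX and MET_FLOX_canertinib were the arms without the deletion. MET_FLOX_canertinib and MET_KO_canertinib also received canertinib, which blocks the kinases of EGFR and its relatives, in the diet with a target of 80 mg/kg. The labels do not give age, sex or the tamoxifen treatment of the floxed arms, or whether an array holds 1 liver or a pool. No arm has a second array on a day, so each p-value below measures the spread that arm and day leave over between arrays.

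HGF is made as an inactive single chain, mainly by stellate and other non-parenchymal cells of the liver, and is bound to the matrix until it is cleaved. The cleavage is done by serine proteases such as HGF activator (Hgfac) and is checked by the membrane inhibitors HAI-1 (Spint1) and HAI-2 (Spint2), while urokinase (Plau), held at the cell surface by its receptor (Plaur), starts the plasmin cascade that releases and can process HGF. Cleaved HGF activates MET on hepatocytes, and MET recruits the docking protein GAB1, which also serves the EGF receptor. This axis is known as one of the main mitogenic inputs to hepatocytes after hepatectomy.

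The promoters of the 4 genes on which the comparisons below turn are shown so that the genes can be located and their upstream sequence read beside the values. Each is the 250 bases before a transcription start in RefSeq's GRCm38.p6, given 5′ to 3′ on the gene's strand. The table used held a promoter for 7 of the 8 genes. The Met stretch is chr6:17463707-17463956 on the plus strand, that of Plaur is chr7:24462233-24462482 on the plus strand, that of Hgfac is chr5:35041259-35041508 on the plus strand, and that of Gab1, before the first of its starts in the table, is chr8:80880520-80880769 on the minus strand. Capitals mark matches on either strand to AP-1 (TGANTCA), the GC box (GGGCGG), a STAT element (TTCNNNGAA), the E-box (CACGTG) and CCAAT.
Met: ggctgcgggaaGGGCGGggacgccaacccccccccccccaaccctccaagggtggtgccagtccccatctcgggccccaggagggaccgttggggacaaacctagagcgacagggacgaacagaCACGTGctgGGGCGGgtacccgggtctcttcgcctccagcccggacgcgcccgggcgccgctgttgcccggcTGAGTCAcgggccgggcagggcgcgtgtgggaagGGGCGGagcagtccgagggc
Plaur: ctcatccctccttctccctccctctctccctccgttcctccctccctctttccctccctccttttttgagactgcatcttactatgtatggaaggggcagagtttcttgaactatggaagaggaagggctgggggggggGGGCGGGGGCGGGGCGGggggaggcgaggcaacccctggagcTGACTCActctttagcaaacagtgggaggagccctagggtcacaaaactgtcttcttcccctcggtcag
Hgfac: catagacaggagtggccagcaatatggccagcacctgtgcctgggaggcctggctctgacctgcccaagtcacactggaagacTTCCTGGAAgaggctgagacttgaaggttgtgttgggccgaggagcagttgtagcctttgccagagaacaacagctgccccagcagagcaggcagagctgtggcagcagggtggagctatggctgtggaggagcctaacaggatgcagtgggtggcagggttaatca
Gab1: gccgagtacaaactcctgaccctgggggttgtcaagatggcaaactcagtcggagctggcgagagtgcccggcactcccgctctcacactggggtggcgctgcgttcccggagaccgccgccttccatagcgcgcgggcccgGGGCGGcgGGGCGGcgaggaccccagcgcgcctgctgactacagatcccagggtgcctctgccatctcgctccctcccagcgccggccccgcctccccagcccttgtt
Met and Plaur each held 1 AP-1 match, 54 and 69 bases before the start. AP-1 letters occur in 6.75% of the 32851 promoters of that table. The Hgfac stretch held 1 STAT match, 167 bases before the start, and 7.02% of all promoters hold one. GC boxes, found in 32.7% of promoters, numbered 3 in Met, 3 in Plaur and 2 in Gab1. Met also had the single E-box of these stretches, a motif in 6.02% of promoters. CCAAT, in 33.8% of promoters, was in none of the 4 stretches. These matches describe letters and say nothing about binding.

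Some facts of the whole set of arrays touch every result. The median signal parted the arrays into a low set of 6 (MET_FLOX and MET_KO on days 0, 2 and 7; medians 156.4 to 188.7) and a high set of 10 (medians 244 to 265.1), so 6 of the 8 arrays without canertinib stand apart from all 8 with it. A further model therefore also held the array set. The ratio of 3′ to 5′ Gapdh probe signal, a sign of RNA integrity, ran from 0.950 to 2.24 on canertinib arrays and from 0.765 to 0.869 on the others. Hepatocyte markers were read beside the liver label, and all 5 with a probe set lay above the array median on every array. So did all 8 Kupffer cell and macrophage markers, so this low bar does not by itself verify the label. Signals of different probe sets are not comparable as amounts, so each probe set is compared only with itself.

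Met did not differ between the genotypes by the test on either of its probe sets, and the sources used here do not place the probe sets relative to exon 16, so neither checks the deletion. On 1434447_at the MET_FLOX signals on days 0, 2, 7 and 14 were 1576.8, 1418.3, 1962.3 and 1040.7. The MET_KO signals were 2065.9, 1617.7, 2035.7 and 1011.2. MET_KO thus lay above MET_FLOX on 3 of 4 days, and the log2 difference was 0.15 (SE 0.21, adjusted p = 0.99998). With canertinib the signals were 1117.5, 1165.2, 2014.2 and 1263.7 in MET_FLOX_canertinib. They were 1421.5, 982.2, 1285.4 and 1321.1 in MET_KO_canertinib. All 4 arms overlapped. Arm means ran from 1252.6 ± 189.2 in MET_KO_canertinib through 1390.2 ± 420.5 in MET_FLOX_canertinib and 1499.5 ± 381.8 in MET_FLOX to 1682.6 ± 492.1 in MET_KO (SD, n = 4 days), each neighbour within 1 SD of the next.

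The second Met probe set, 1422990_at, read lower in the canertinib arms. MET_FLOX gave 507.7, 522.0, 600.1 and 700.3 on days 0, 2, 7 and 14, and MET_KO gave 540.5, 440.5, 624.1 and 546.1. MET_FLOX_canertinib gave 355.5, 493.7, 97.8 and 428.0, and MET_KO_canertinib gave 499.4, 98, 340.7 and 108.8. The canertinib arms were lower on all 4 days, with overlap between the groups only where the canertinib arrays at 493.7 and 499.4 exceeded the lowest array without the drug. The log2 difference, canertinib arms minus the others, was −1.10 (SE 0.35, adjusted p = 0.0259), and it passed the call at an adjusted p under 0.05. The first Met probe set differed by −0.25 (SE 0.15, adjusted p = 0.199) in the same comparison and passed only when each array was centred on its own median (−0.63, adjusted p = 0.0175). The call on 1422990_at was lost on leaving out MET_KO_canertinib day 2 (−0.92, adjusted p = 0.0635), MET_KO day 7 (−1.03, adjusted p = 0.0578), MET_FLOX day 7 (−1.06, adjusted p = 0.0536) or MET_FLOX day 2 (−1.10, adjusted p = 0.0507), and in the model with the array set (−1.43, SE 0.71, adjusted p = 0.412). The 3 lowest arrays had Gapdh 3′ to 5′ ratios of 1.52, 1.35 and 1.13, while the array with the highest ratio, 2.24, read 428.0; the part of RNA integrity in the difference was not tested.

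Hgf did not separate the arms on any of its 3 probe sets. On 1425379_at the signals on days 0, 2, 7 and 14 were 381.2, 305.6, 179.5 and 338.5 in MET_FLOX. They were 378.0, 368.3, 309.6 and 274.8 in MET_KO. They were 257.2, 553.4, 683.1 and 144.8 in MET_FLOX_canertinib. They were 251.3, 214.4, 273.4 and 490.6 in MET_KO_canertinib. The MET_FLOX_canertinib arm held both the highest and the lowest of the 16 values, on days 7 and 14, and its SD of 250.9 was above those of MET_FLOX (86.8), MET_KO (49.0) and MET_KO_canertinib (124.5). The canertinib difference was 0.04 (SE 0.30, adjusted p = 0.929), which was −0.34 after centring each array, −0.25 after quantile normalization and −0.17 when the model held the array set.

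The other Hgf probe sets were dim. On 1451866_a_at, above the array median on 3 arrays, signals ran from 113.1 to 219.1 without canertinib and from 12.1 to 254.9 with it. Canertinib arrays averaged lower on 4 of 4 days, and without the filter on dim probe sets the log2 difference was −0.66 (SE 0.34, adjusted p = 0.159). On 1442884_at, above the median on 0 arrays, signals ran from 24.4 to 143.2 over the 16 arrays, too low to order. The 9 stellate cell markers, for the cells that make much of the liver's HGF, had summed signals of 6777.4 to 8932.4 (MET_FLOX), 8052.9 to 10291.7 (MET_KO), 5964.4 to 10122.4 (MET_FLOX_canertinib) and 6361.5 to 9805.4 (MET_KO_canertinib), so these ranges overlapped as Hgf did. In whole liver, fewer cells of a type and less RNA per cell cannot be told apart.

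**Figure D1:**
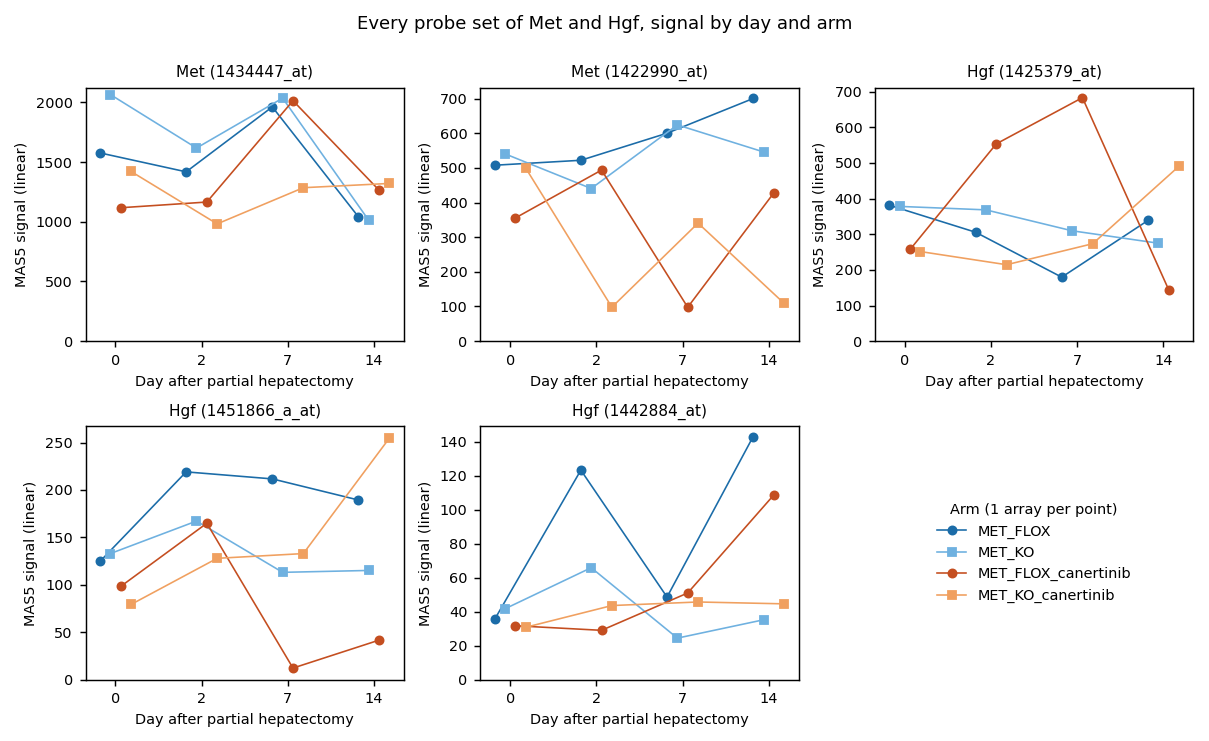
MAS5 signal (linear, from 0) of every Met and Hgf probe set against the day after partial hepatectomy, 1 array per point, points of a day set side by side by arm. On Met 1422990_at 3 canertinib arrays lie near 100 and every array without canertinib lies at 440.5 or above, while the arms cross on Met 1434447_at and on all 3 Hgf probe sets.

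Hgfac encodes the serine protease that cleaves HGF in plasma and is made by hepatocytes. Its signal was lower on day 2 than on day 0 in all 4 arms. MET_FLOX gave 9398.5, 2272.3, 5305.0 and 4282.5 on days 0, 2, 7 and 14, and MET_KO gave 7530.8, 3439.0, 7845.1 and 7041.7. MET_FLOX_canertinib gave 6923.1, 5473.2, 5496.8 and 6183.4, and MET_KO_canertinib gave 6694.1, 4552.2, 4145.1 and 2521.9. The means over arms were 7636.6 ± 1226.5 on day 0, 3934.2 ± 1385.4 on day 2, 5698.0 ± 1551.0 on day 7 and 5007.4 ± 2018.6 on day 14 (SD, n = 4 arms). Every day 0 array exceeded every day 2 array, whereas days 2, 7 and 14 overlapped.

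The fitted day 2 difference was −1.02 on the log2 scale (SE 0.29), which did not pass over all probe sets (adjusted p = 0.205). In that comparison 0.336% of all probe sets passed and 0 of the 9 tested here did. The difference was larger within the low array set, at −1.58 over MET_FLOX and MET_KO, than within the high set, at −0.45 over the canertinib arms, and that gap was not tested. Leaving out MET_KO_canertinib day 2 gave −1.27 (adjusted p = 0.0497). Summed hepatocyte markers moved the same way without the drug, from 170072 on day 0 to 131611 on day 2 in MET_FLOX and from 163985 to 94590 in MET_KO, but were 336850 and 341676 in MET_FLOX_canertinib and 192466 and 308067 in MET_KO_canertinib. Their part in the Hgfac values was not tested.

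The Hgfac arms lay furthest apart on day 14, where the SD over arms was 0.66 on the log2 scale. It was 0.22, 0.55 and 0.38 on days 0, 2 and 7. On day 14 the MET_KO_canertinib array was the lowest of that day and the MET_KO array the highest, a log2 gap of −1.48, while MET_FLOX_canertinib stood 0.53 above MET_FLOX. MET_KO_canertinib lay below MET_FLOX_canertinib on 4 of 4 days, by −0.50 (SE 0.29, adjusted p = 0.999). The genotype by canertinib interaction for Hgfac was −0.89 (SE 0.41, adjusted p = 0.99998). Across all probe sets 0.0179% passed in the interaction and 0 of the 9 did. MET_KO_canertinib minus MET_KO was −0.54 (SE 0.29, adjusted p = 0.212) and passed only with each array centred (−0.95, adjusted p = 0.0337).

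Plau, which encodes urokinase, was dim and scattered, lying above the array median on 7 of 16 arrays. From day 0 to day 14 the MET_FLOX signals were 124.5, 44.3, 89.1 and 329.8, and those of MET_KO were 141.2, 19.5, 49.8 and 260.3. Those of MET_FLOX_canertinib were 352.2, 55.6, 152.0 and 350.3, and those of MET_KO_canertinib were 55.2, 272.9, 358.2 and 371.8. On this probe set, the brighter one of Plau, the 4 arms came together on day 14, at 328.1 ± 48.3 (SD, n = 4 arms). Means were 168.3 ± 128.1, 98.1 ± 117.5 and 162.3 ± 137.2 on days 0, 2 and 7. Day 14 minus day 0 was 1.14 (SE 0.60, adjusted p = 0.376), higher in 3 of 4 arms, and 0.72 to 1.14 under the alternative settings. In MET_FLOX and MET_KO these days lay in different array sets. The canertinib difference was 0.91 (SE 0.42, adjusted p = 0.106), higher on 4 of 4 days, and passed on leaving out MET_KO_canertinib day 0 (1.28, adjusted p = 0.0148). It was 0.53 with each array centred, 0.55 with quantile normalization and 0.29 when the model held the array set (adjusted p = 0.314, 0.330 and 0.935). The dimmer Plau probe set lay above the array median on 2 arrays. Its day 14 signals ran from 21.8 to 166.0, at 118.0 ± 65.3 (SD, n = 4 arms).

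Plaur, the urokinase receptor, read higher in the canertinib arms. The MET_FLOX arrays of days 0, 2, 7 and 14 read 428.5, 418.7, 396.5 and 745.2, and the MET_KO arrays 427.4, 339.8, 446.7 and 764.1. The MET_FLOX_canertinib arrays read 713.5, 641.3, 529.2 and 560.3, and the MET_KO_canertinib arrays 680.2, 856.0, 652.5 and 1334.1. On days 0, 2 and 7 each canertinib array exceeded both arrays without it. On day 14 MET_FLOX_canertinib was the lowest of the 4 and MET_KO_canertinib the highest. Arm means were 494.5 ± 185.7 in MET_KO and 497.2 ± 165.9 in MET_FLOX, which differed by less than their spread. They were 611.1 ± 83.0 in MET_FLOX_canertinib and 880.7 ± 315.4 in MET_KO_canertinib (SD, n = 4 days).

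The canertinib difference for Plaur was 0.57 (SE 0.16, adjusted p = 0.0155), higher on 4 of 4 days, and it stayed past the threshold on leaving out each of the 16 arrays in turn (adjusted p from 0.00239 to 0.0396). It fell to 0.19 with each array centred (adjusted p = 0.292), to 0.37 with quantile normalization (adjusted p = 0.0893) and to 0.19 in the model with the array set (SE 0.29, adjusted p = 0.849). The array set leaves the day 14 arrays alone to carry the difference, and there the flox pair differed by −0.40 and the knockout pair by 0.79. Within the knockout genotype, MET_KO_canertinib minus MET_KO was 0.82 (SE 0.23, adjusted p = 0.0437), higher on 4 of 4 days. This call was lost on leaving out any 1 of 12 arrays (adjusted p from 0.0509 to 0.143), without the filter on dim probe sets (adjusted p = 0.0577), and in the 3 settings just named (adjusted p = 0.163, 0.102 and 0.654).

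MET_KO_canertinib minus MET_FLOX gave 0.79 for Plaur (SE 0.23, adjusted p = 0.0598). Among the cells known to carry the urokinase receptor are neutrophils and macrophages. The 7 neutrophil markers with a probe set had summed signals of 1971.2 to 5341.9 (MET_FLOX), 1692.9 to 4769.7 (MET_KO), 3514.1 to 6396.2 (MET_FLOX_canertinib) and 3175.6 to 45324.4 (MET_KO_canertinib), and 5 of the 6 tested were called higher with canertinib, a comparison in which 34.3% of all probe sets passed, against 0 of the 6 once the model held the array set. The 45324.4 belonged to MET_KO_canertinib day 14, the array with the highest Plaur signal. None of the 8 Kupffer cell and macrophage markers was called, and their sums overlapped between arms, with 7002.9 to 29772 on arrays without the drug and 8757.7 to 38652.2 with it. The part of these cells in the Plaur difference was not tested.

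Spint1 and Spint2, which encode the inhibitors of HGF activation, gave no call. The MET_FLOX arrays of days 0, 2, 7 and 14 gave Spint1 signals of 399.0, 409.8, 344.3 and 515.1, and the MET_KO arrays 468.0, 284.1, 399.3 and 680.6. MET_FLOX_canertinib gave 513.3, 529.8, 748.9 and 466.8, and MET_KO_canertinib 585.9, 503.5, 494.5 and 839.4. The canertinib mean was the higher on 4 of 4 days, with a difference of 0.42 (SE 0.17, adjusted p = 0.0705). It passed on leaving out MET_FLOX_canertinib day 14 (0.54, adjusted p = 0.0148) or MET_KO day 14 (0.49, adjusted p = 0.0412), and was 0.08 in the model with the array set.

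For Spint2 the MET_FLOX arrays gave 4275.6, 4746.1, 3598.8 and 3576.4 over the same days, and the MET_KO arrays 2093.3, 2256.7, 4428.0 and 3344.9. MET_FLOX_canertinib gave 2802.3, 3518.8, 3338.2 and 4148.9, and MET_KO_canertinib 2828.1, 2641.7, 3015.7 and 4335.2. The MET_KO arrays of days 0 and 2 were the lowest of the 16. MET_KO minus MET_FLOX was −0.47 (SE 0.22, adjusted p = 0.99998), the lowest of the 9 tested probe sets in that comparison. In the canertinib comparison this probe set gave −0.06 (SE 0.16, adjusted p = 0.797), which turned to 0.20 with quantile normalization and 0.29 when the model held the array set. For MET_KO minus MET_FLOX the second Spint2 probe set gave 0.10 (SE 0.18, adjusted p = 0.99998), in the opposite direction.

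Gab1, the docking protein that links MET and the EGF receptor to PI3 kinase and the ERK cascade, read higher in the canertinib arms on its brightest probe set. Over days 0, 2, 7 and 14 MET_FLOX read 617.4, 690.4, 572.1 and 918.5, while MET_KO read 810.3, 503.6, 638.1 and 688.9. MET_FLOX_canertinib read 679.6, 1034.4, 1294.6 and 1007.7, while MET_KO_canertinib read 765.5, 940.2, 1118.6 and 1399.0. The groups overlapped on day 0, where the mean difference was 0.03, and on days 2, 7 and 14 each canertinib array exceeded both arrays without it, by mean differences of 0.73, 0.98 and 0.57. Arm means were 660.2 ± 127.0 in MET_KO and 699.6 ± 153.9 in MET_FLOX, against 1004.1 ± 252.1 and 1055.8 ± 270.4 in MET_FLOX_canertinib and MET_KO_canertinib (SD, n = 4 days). Neither genotype pair differed by more than its spread.

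The fitted Gab1 difference was 0.57 (SE 0.16, adjusted p = 0.0145), and it passed on leaving out each of the 16 arrays in turn (adjusted p from 0.00738 to 0.0384). Once the model held the array set, the estimate was 0.57 with an SE of 0.31 (adjusted p = 0.475). That estimate rests on the day 14 arrays alone, where the flox pair differed by 0.13 and the knockout pair by 1.01. With each array centred the difference was 0.19 (adjusted p = 0.349). The 2 dimmer Gab1 probe sets differed by −0.13 (SE 0.16, adjusted p = 0.557) and −0.29 (SE 0.29, adjusted p = 0.449). The higher signal was thus measured on 1 of 3 probe sets of the gene.

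**Figure D2:**
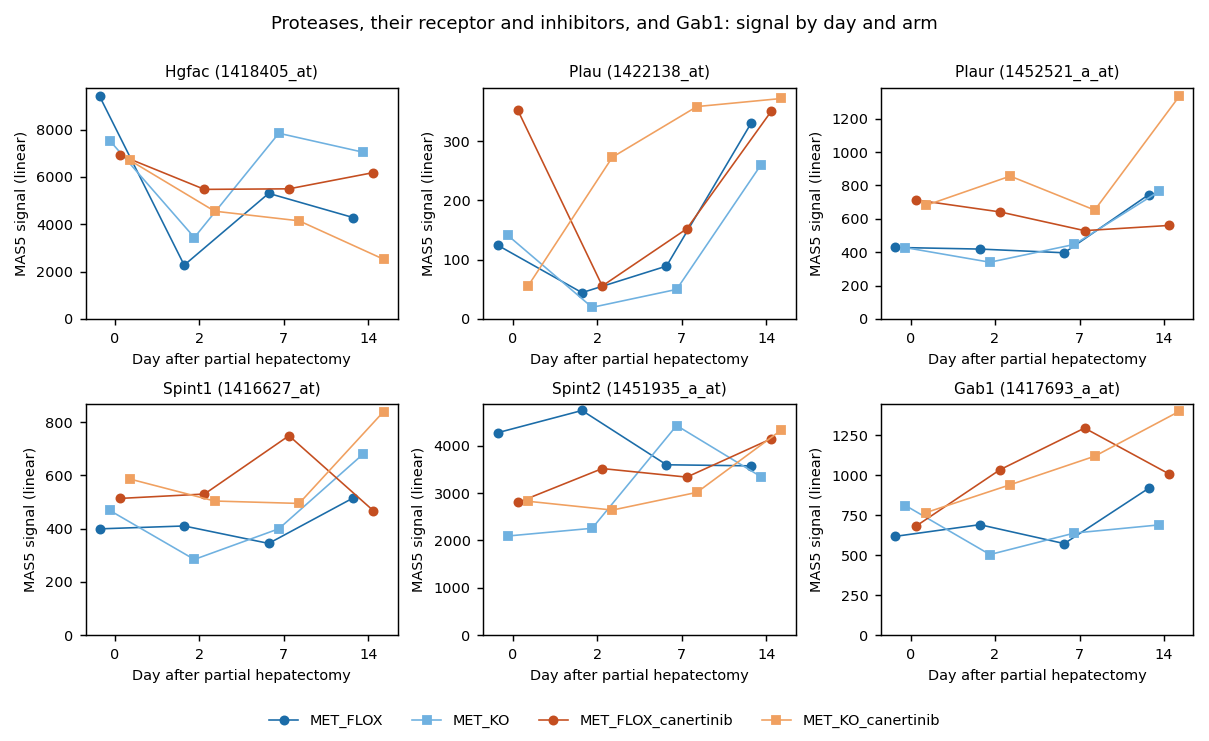
MAS5 signal (linear, from 0) of Hgfac, Plau, Plaur, Spint1, Spint2 and Gab1 against the day after partial hepatectomy, 1 array per point, points of a day set side by side by arm. The 4 Hgfac lines fall from day 0 to day 2, and the canertinib points for Gab1 lie above the others on days 2, 7 and 14.

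In all, 3 of the 9 tested probe sets passed in the comparison of canertinib arms with the others, Met 1422990_at lower and Plaur and Gab1 higher. Over all 22315 probe sets tested 34.3% passed there, 4764 higher and 2897 lower, so the share among these genes was near the background. Among those calls 62.2% were higher, which became 15.7% with each array centred, 42.9% with quantile normalization and 21.2% in the model with the array set. The median of all probe sets was 0.09 as fitted and −0.29 with each array centred. Relative to it Plaur and Gab1 stood 0.48 higher in both fits. Centring shifts all probe sets of an array alike, so that value could not change. With quantile normalization Plaur stood 0.39 and Gab1 0.52 above the median of all. The median of the 9 probe sets was 0.04. In the model with the array set, 0 of the 9 passed in any of the 11 comparisons, where the lowest adjusted p in the canertinib comparison was 0.412.

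Single pairs of arms gave 1 call in all, Plaur in MET_KO_canertinib minus MET_KO, a comparison in which 7.76% of all probe sets passed. In MET_FLOX_canertinib minus MET_FLOX 0 of the 9 passed against 8.47% of all, the lowest adjusted p being 0.145 for Gab1 at 0.50 (SE 0.22). In MET_KO_canertinib minus MET_FLOX 0 passed against 3.33%, with Met 1422990_at at −1.39 (SE 0.49, adjusted p = 0.0978). These pairs share arms, so they are not independent of one another.

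Genotype gave no call: 0 of the 9 and 0% of all probe sets passed in the MET_KO arms minus the MET_FLOX arms, in MET_KO minus MET_FLOX and in MET_KO_canertinib minus MET_FLOX_canertinib. At an unadjusted p under 0.05 limma gave 0, 1 and 0 of the 9 and 550, 509 and 1072 of all probe sets. Estimates for the 9 ran from −0.30 to 0.22 in the pooled genotype comparison. By day, 0 of the 9 passed on day 7 minus day 0, where 0.00448% of all passed, and on day 14 minus day 0, where 0.0359% did. Day 7 estimates ran from −0.45 to 0.29 and day 14 estimates from −0.70, for Hgfac, to 1.14, for Plau. Plaur stood 0.55 higher on day 14 (SE 0.23, adjusted p = 0.280), in 3 of 4 arms, and 0.30 to 0.55 higher under the alternative settings. In MET_FLOX and MET_KO day 0 lay in the low array set and day 14 in the high set. In those arms day 14 and the array set cannot be told apart.

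**Figure D3:**
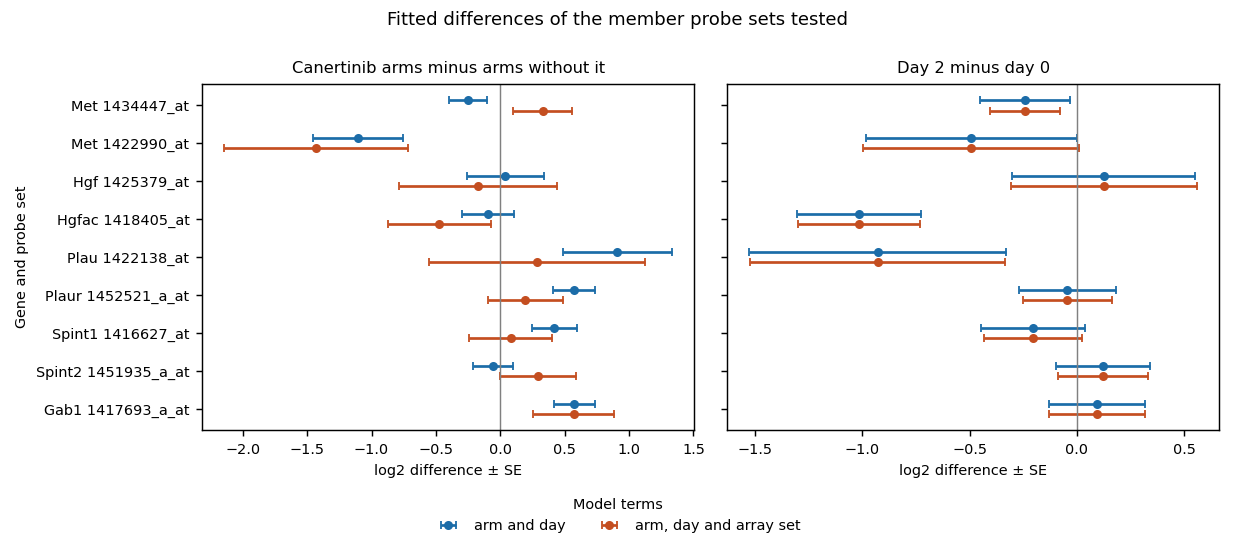
Fitted log2 differences (points) with their SE (bars) for the 9 tested probe sets, canertinib arms minus the others at left and day 2 minus day 0 at right, with arm and day as terms and again with the array set as a further term. At left the bars widen with the added term, and Met 1434447_at, Hgf 1425379_at and Spint2 1451935_a_at change sign, and at right Hgfac stands at −1.02 in both.

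Other genes of the axis were taken from lists of 69 genes, of which 61 had a probe set with 1 gene and 58 were tested. In the canertinib comparison 10 were called higher and 6 lower, 27.6% of those tested beside 34.3% of all probe sets, with a median of 0.13 beside 0.09. When the model held the array set, 0 of the 58 passed, and Pik3r1, Spry4 and Ptprj took the opposite sign (−0.23, −0.26 and −0.06). The other called genes kept their sign with a wider SE. Some stayed near their first estimate, as Plat at 1.02 (SE 0.37). Others were smaller, as Crk at −0.15 (SE 0.26), or larger, as Stat3 at 1.27 (SE 0.36). The genes below are therefore a description of the axis and do not set it apart from other genes. Of the 8 tested HGF activating proteases 2 rose: Plat, tissue plasminogen activator, by 1.05 (SE 0.19, adjusted p = 0.00262), and Plg, the plasmin precursor, by 0.67 (SE 0.19, adjusted p = 0.0171). Hpn (hepsin), F12, Klkb1, Furin and St14 (matriptase) did not pass. Of 2 tested inhibitors, Timp1, a matrix protease inhibitor, rose by 0.49 (SE 0.15, adjusted p = 0.0225).

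Among 17 tested adaptors and effectors of MET 2 rose and 4 fell. Pik3r1, the regulatory subunit of PI3 kinase, rose by 1.08 (adjusted p = 0.00656) and Stat3 by 0.61 (adjusted p = 0.0333). Crk, an adaptor, was lower, with a difference of −0.99 (adjusted p = 0.00267), and the GTPase gene Rac1 had −0.57 (adjusted p = 0.00820). Of 10 coreceptors and binding partners 1 rose and 2 fell. The integrin gene Itgb4 rose by 1.20 (adjusted p = 0.0401), while Fas, the death receptor that MET can bind, had −0.96 (adjusted p = 0.00719) and Itgb1 −0.46 (adjusted p = 0.0169). Of 15 negative regulators 3 rose, namely the cytokine signalling inhibitor Socs1 by 1.31 (adjusted p = 0.00587), the ERK pathway inhibitor Spry4 by 0.54 (adjusted p = 0.0477) and the phosphatase gene Ptprj by 0.41 (adjusted p = 0.0380). Of 5 matrix genes Vtn, vitronectin, rose by 0.87 (adjusted p = 0.00698).

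Within MET_KO_canertinib minus MET_KO 4 listed genes were higher and 2 lower, 10.3% of the 58 beside 7.76% of all probe sets. They were St14 at 2.0 (adjusted p = 0.0437), Socs1 at 1.47 (adjusted p = 0.0458), Pik3r1 at 1.23 (adjusted p = 0.0469), Plat at 1.20 (adjusted p = 0.0261), Crk at −0.93 (adjusted p = 0.0435) and Fas at −1.13 (adjusted p = 0.0457). In MET_FLOX_canertinib minus MET_FLOX Crk alone passed, at −1.05 (adjusted p = 0.0304), which is 1.72% of the 58 beside 8.47% of all. In MET_KO_canertinib minus MET_FLOX Timp1 was higher by 0.83 (adjusted p = 0.0473), and Crk and Fas were lower, at −1.05 (adjusted p = 0.0409) and −1.29 (adjusted p = 0.0432), making 5.17% of the 58 beside 3.33% of all. Every one of these calls between pairs of arms was lost once the model held the array set, with Crk at −0.09 to −0.22. In that model Plxnb1, a plexin gene chosen after its values were seen, was instead called higher in MET_FLOX_canertinib than in MET_FLOX, at 1.43 (adjusted p = 0.0340), from 0.55 (adjusted p = 0.145). No listed gene passed in a comparison of genotypes, in the interaction or by day.

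The genes whose course over the 16 arrays was closest to each of the 8 were found by the mean absolute gap between log2 values centred on their means, among tested genes that varied at least as much. For Met 1434447_at they were Vps26c (gap 0.14), Erbin (0.16) and Chtop (0.18), and for Hgf 1425379_at N4bp3 (0.34), Scrib (0.37) and Akap5 (0.37). The closest to Hgfac was Pigr, which encodes the polymeric immunoglobulin receptor (0.26). The closest to Plaur was Cacng4 (0.15), to Gab1 Farsa (0.18), to Spint1 Fibp (0.16), to Spint2 Ubl7 (0.24) and to Plau 4930431F12Rik (0.45). These gaps describe the same 16 arrays, whose medians and RNA integrity they share.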

How the data were processed

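Signal intensity for each probe set, linear and made with MAS5 per the submitters' processing notes, was used as the authors deposited it; biotinylated cRNA came from 6 ug of total RNA extracted with Trizol, per the labels' protocols. No version of MAS5 is given in these sources. Trimmed by 2% at each end, the mean signal was 500.0 on every array. The number of arrays limits the precision.

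Of 45101 probe sets, 34945 named 1 gene, 932 several and 9160 none, and 64 were controls. Gene names come from the platform's annotation. Values were log2 transformed after adding 16, and 22315 probe sets above their array's median on at least 4 arrays were tested in R 4.3.3 (limma 3.58.1) by a model of arm and day with 9 residual degrees of freedom and an intensity trend. P-values are two-sided and Benjamini-Hochberg adjusted over all tested probe sets; a call is an adjusted p under 0.05. An array stands for its arm on a day, and replicates of an arm are its 4 days. The fit was tested on simulated data with independent noise and differences planted in both canertinib arms. Those data held no array set, so that test does not bear on it. Alternatives were a pseudocount of 64, no filter, centring, quantile normalization, the array set as a term (8 residual degrees of freedom, with the sets parted at a median of 216.35), 1 probe set per gene, and leaving out each array.

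The genes, lists and tests were chosen with earlier results of these data known. All 8 genes are named, and from each list up to 4 called genes with the largest differences. Of the 69 listed genes 11 were not tested, 3 of them because they did not pass the filter on dim probe sets.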

Additional observations from a re-analysis of the deposited data

Results flagged for a closer look

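Each of 11 probe sets was checked in each of 4 arms, 44 groups of 4 arrays, for a single array that lies far from the other 3; chance alone picks out about 1 group in 20. In 3 groups an array did. Hgfac in MET_KO read 3439 on day 2, with 7041.7 the next higher. Plaur in MET_FLOX read 745.2 on day 14, with 428.5 the next lower. Hgf 1442884_at in MET_KO_canertinib read 30.8 on day 0, with 43.6 the next higher, on a probe set that lay below the median of every array. The arrays of an arm are different days, so an array that stands apart is also a day that does. The flagged Plaur array was also the only MET_FLOX array in the high array set, so day and array set cannot be told apart there.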

How the results depend on the processing

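Of 583 fitted values of these genes under other settings, 569 kept their side of the threshold, 10 lost a call and 4 gained one, and of 1584 with 1 array left out 1563 kept it, 16 lost and 5 gained one. No called value of these 8 genes changed sign. Uncalled values took the opposite sign in 33 and 99 of them, the 33 being 12 under quantile normalization, 11 with the array set as a term and 10 with each array centred. For the canertinib comparison the 3 calls became 0 with the array set as a term, as did the 16 calls among listed genes. Over all probe sets the 7661 calls of 22315 tested became 104 in that model. With 1 probe set per gene there were 4701 calls, but of 13575 genes tested. For MET_KO_canertinib minus MET_KO the 1 call became 0 without the filter, with quantile normalization or with the array set as a term, and 2 with each array centred. For MET_KO_canertinib minus MET_FLOX the 0 calls became 1 with each array centred. The cause was not tested.

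Counts per gene are out of 13575 genes and those without the filter out of 34945 probe sets, while the others are out of 22315. Counts out of different totals do not compare as shares. Over all probe sets, MET_FLOX_canertinib minus MET_FLOX went from 1891 calls to 3215 with each array centred, 44 with the array set as a term and 922 with 1 probe set per gene. MET_KO_canertinib minus MET_KO went from 1731 to 1104 without the filter, 3805 centred, 736 with quantile normalization, 61 with the array set and 1132 per gene. MET_KO_canertinib minus MET_FLOX went from 742 to 482, 2439, 457, 42 and 395 in that order. The interaction went from 4 to 2 per gene, MET_KO_canertinib minus MET_FLOX_canertinib from 0 to 1 with the array set, and day 14 minus day 0 from 8 to 0 without the filter, 109 centred, 1 with quantile normalization and 57 with the array set.

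Leaving out each array in turn gave 64 to 3649 probe sets called in MET_FLOX_canertinib minus MET_FLOX, 70 to 3263 in MET_KO_canertinib minus MET_KO, 17 to 2187 in MET_KO_canertinib minus MET_FLOX, 0 to 263 on day 2 minus day 0, 1 to 5 on day 7, 0 to 192 on day 14, 0 to 9 in the interaction, and 0 to 1, 0 to 4 and 0 to 2 in the pooled, undrugged and canertinib genotype comparisons. The lowest of these counts came without MET_FLOX day 2, MET_KO day 7 and MET_FLOX day 2 in the first 3 comparisons. Among the genes of the report the counts ran from 0 to 1 in MET_KO_canertinib minus MET_KO, in MET_KO_canertinib minus MET_FLOX and on day 2, and from 2 to 4 in the canertinib comparison.

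No paired analysis was possible because the labels carry no replicate number; day is already a term of the model. Dim probe sets limit Plau and 2 of the 3 Hgf probe sets. The canertinib comparison runs along the parting of the array medians outside day 14, so there the diet and the array set cannot be told apart. On day 14 the Gapdh 3′ to 5′ ratio was 1.13 and 2.24 with canertinib and 0.811 on both other arrays. Diet and RNA integrity therefore cannot be told apart on that day either.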

Other observations

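In the canertinib comparison, where 34.3% of all probe sets passed with a median of 0.09, 3 of 5 tested hepatocyte markers were called higher, with a median difference of 0.77 on the log2 scale. Of 4 tested lymphocyte markers 3 were called higher, with a median of 1.08, and of 4 tested cholangiocyte markers 1 was, with a median of 0.84. Of 9 stellate cell markers 1 was called higher and 1 lower, and likewise for the 8 markers of sinusoidal endothelium. With the array set as a term 0 markers of these lists were called, and the hepatocyte, lymphocyte and cholangiocyte medians were 0.08, −0.05 and 0.24.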
